A study of Mus musculus with 6 samples.

Results

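Control-only regions were the stretches of open chromatin that carried a called peak in every control library of mouse CD8+ T cells and in no library of cells cultured with palmitate. They were chosen from the rows of the deposited count matrix as those overlapping, by 1 bp or more, a peak in all 3 control peak lists and no peak in any of the 3 palmitate lists. Of the 24605 regions of the matrix, 798 met this rule, which is 3.24% of them. The number of control-only regions depended on the lists: it was 1826 without the list of control 1 and 1502 without that of control 2. Leaving out a list removes a condition, so the number could only rise or stay equal. Counting only peaks that scored above the overall median of 172, the number was 179, and 4 of these were among the 798. The others of the 179 did carry a palmitate peak, but none that scored above 172. The median lowest control score of the 798 was 55, so few could pass this rule. The cells were wild-type CD8+ T cells taken from mouse pancreas, spleen and lymph nodes and kept in complete T cell medium for 48 hours, with 100 µM palmitate (3 libraries) or as controls (3 libraries), and 50000 cells sorted by FACS entered each library. The labels give neither strain, age nor sex of the mice, nor any vehicle for the controls, and do not say whether the numbered replicates came from separate animals or cultures.

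ATAC-seq measures how open chromatin is through the Tn5 transposase, which cuts accessible DNA, so that reads pile up over promoters and enhancers. Promoters, the starts of genes, are open in most cell types. Enhancers lie between or inside genes, are bound by transcription factors in a cell-specific manner, and in T cells are known to open and close with antigen and cytokine signals. Palmitate is a saturated fatty acid that cells take up, oxidise in mitochondria or build into lipids. A called peak is a threshold passed in 1 library, so a region without a peak is not a closed region, and the counts in it were examined library by library.

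The 6 libraries held 2219136 to 3089230 counts in the regions of the matrix. The control lists held 22359 to 27122 peaks and the palmitate lists 20201 to 21502, with median peak scores of 155 to 156 and 194 to 204, the scores being the authors' own. Control 1 had both the fewest counts and the shortest control list. Of 6 CD8 T cell markers, 4 had an open region at a gene end (27.1 to 83.4 CPM, that is counts scaled to library size with TMM factors). None of 4 NK cell markers had one, and 1 of 4 CD4 T cell markers (Zbtb7b), 1 of 6 B cell markers (Ebf1), 1 of 6 myeloid markers (Spi1) and 1 of 6 pancreas markers (Cela1) did. The summed CPM of these markers was 166 in control and 172 in palmitate for CD8 T cells, 45.1 and 62.2 for CD4 T cells, 12.9 and 15.3 for B cells, 10.1 and 10.9 for myeloid cells and 38.8 and 34.6 for pancreas. Their part in the results was not tested. In such bulk libraries, fewer cells with an open region and a smaller opening per cell cannot be told apart.

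Few control-only regions were promoters, but those that were can be read as sequence. Of the 798, 18 covered at least 100 of the 250 bases before an annotated start of a protein-coding gene in the RefSeq promoter table (GRCm38.p6, the assembly of mm10). The covered, upstream parts are shown for the 3 such genes with the highest counts and the 4 with the lowest fold change, on each gene's own strand, 5′ to 3′, ending at or before the base next to the start. Lck encodes the kinase that starts T cell receptor signalling, Fam78a a protein of unknown function, Chst15 a sulfotransferase of chondroitin chains, Aox1 an aldehyde oxidase, Fam124a and Plekhh2 little-studied proteins, and Egr4 a zinc finger factor of the early growth response family. Capitals mark a match to 1 of the searched motifs, which was the RUNX word TGTGGTT at Lck, the SP/KLF word GGGGCGGGG at Chst15 and the AP-1 word TGANTCA at Aox1.
Lck, chr4:129573642-129573771, minus strand: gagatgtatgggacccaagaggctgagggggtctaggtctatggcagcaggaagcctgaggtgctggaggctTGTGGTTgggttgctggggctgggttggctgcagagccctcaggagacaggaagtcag
Fam78a, chr2:32084670-32084866, minus strand: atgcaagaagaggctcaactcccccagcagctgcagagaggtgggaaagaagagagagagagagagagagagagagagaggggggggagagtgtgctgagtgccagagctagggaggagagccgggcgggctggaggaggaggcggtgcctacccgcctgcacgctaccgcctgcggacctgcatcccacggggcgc
Chst15, chr7:132317229-132317424, minus strand: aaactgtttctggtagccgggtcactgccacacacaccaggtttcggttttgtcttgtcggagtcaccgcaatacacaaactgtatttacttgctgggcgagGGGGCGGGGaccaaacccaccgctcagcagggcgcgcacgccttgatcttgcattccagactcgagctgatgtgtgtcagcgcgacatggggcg
Aox1, chr1:58029719-58029847, plus strand: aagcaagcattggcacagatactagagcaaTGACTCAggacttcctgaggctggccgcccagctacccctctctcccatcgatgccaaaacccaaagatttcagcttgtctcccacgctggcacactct
Plekhh2, chr17:84511734-84511894, plus strand: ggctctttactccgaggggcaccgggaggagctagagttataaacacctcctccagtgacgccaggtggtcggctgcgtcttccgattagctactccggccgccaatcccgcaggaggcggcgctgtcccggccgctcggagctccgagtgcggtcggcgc
Fam124a, chr14:62555487-62555736, plus strand: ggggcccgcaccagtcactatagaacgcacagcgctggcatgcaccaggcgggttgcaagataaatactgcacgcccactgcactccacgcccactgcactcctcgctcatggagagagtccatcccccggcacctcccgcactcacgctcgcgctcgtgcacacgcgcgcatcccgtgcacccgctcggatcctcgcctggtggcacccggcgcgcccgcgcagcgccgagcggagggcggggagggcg
Egr4, chr6:85513595-85513819, minus strand: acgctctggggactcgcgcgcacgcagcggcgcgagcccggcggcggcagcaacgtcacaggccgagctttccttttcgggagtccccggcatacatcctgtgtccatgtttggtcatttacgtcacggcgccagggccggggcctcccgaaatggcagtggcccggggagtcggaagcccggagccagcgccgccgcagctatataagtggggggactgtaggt

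Over the 19 upstream windows of 250 bases (1 gene had 2 starts), the median G and C content was 56.4% and the median number of CG dinucleotides 10, against 62% and 18 over the 8582 protein-coding promoters covered by any region of the matrix, and 55.6% and 10 over all 21262 in the table. The motif words were searched on both strands of these windows. RUNX was present in 2 of 19 (10.5%; 2.89% of covered promoters), AP-1 in 1 (5.26%; 3.41%), SP/KLF in 2 (10.5%; 23.6%) and the CRE word TGACGTCA in 1 (5.26%; 3.41%). The NFAT word GGAAAN, not capitalised above because it is so common, was in 10 (52.6%; 52.1%). Both windows with the SP/KLF word were those of Chst15, the gene with 2 starts. The ETS word CCGGAAGT was in 0 of 19 and in 7.83% of covered promoters. The words for TCF (CTTTGATG) and the T-box (AGGTGTGA), and those for CTCF, NF-kB and bZIP-IRF, were also in 0 of the 19, and each was in under 1% of covered promoters. The bZIP-IRF word holds the AP-1 word. With 19 windows each match moves a share by over 5 percentage points, so these shares are descriptions.

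At 3 of the 7 promoters shown, those chosen for the highest counts, the groups overlapped. The others were chosen for the lowest fold change, which favours groups that lie apart, so the split describes the choice. Of all 54 control-only regions at gene ends, every control lay above every palmitate library in 37. Among all regions of the matrix at gene ends this share was 6.06%. At Lck controls 1 to 3 had 44, 54 and 60 raw counts and palmitate libraries, in the same order, 40, 47 and 47, so the groups overlapped once scaled to library size (19.2 ± 1.22 and 16.6 ± 1.25 CPM, mean ± SD, n = 3 per group). At Chst15 they were 29, 45 and 32 against 33, 38 and 20, again with overlap. At Fam78a they were 32, 58 and 31 against 32, 37 and 28, also with overlap. All control libraries lay above all palmitate libraries at Aox1 (24, 21 and 29 against 12, 12 and 8), Plekhh2 (14, 30 and 20 against 12, 12 and 9), Fam124a (32, 40 and 39 against 20, 22 and 17) and Egr4 (19, 20 and 27 against 13, 15 and 10).

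Over all 798 regions the counts were low in every library and lower with palmitate. In controls 1 to 3 the median region had 10.0, 8.65 and 9.52 CPM, and with palmitate 4.73, 4.42 and 4.60 CPM, which is 23 to 28 raw reads per control library and 12 to 13 per palmitate library. Together the regions took 0.790 to 0.900% of the counts of a control library and 0.388 to 0.423% of those of a palmitate library. No palmitate library was without reads in any of them, the lowest raw count being 1, and the highest was 128. The palmitate libraries thus retained reads at every control-only region.

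**Figure D1:**
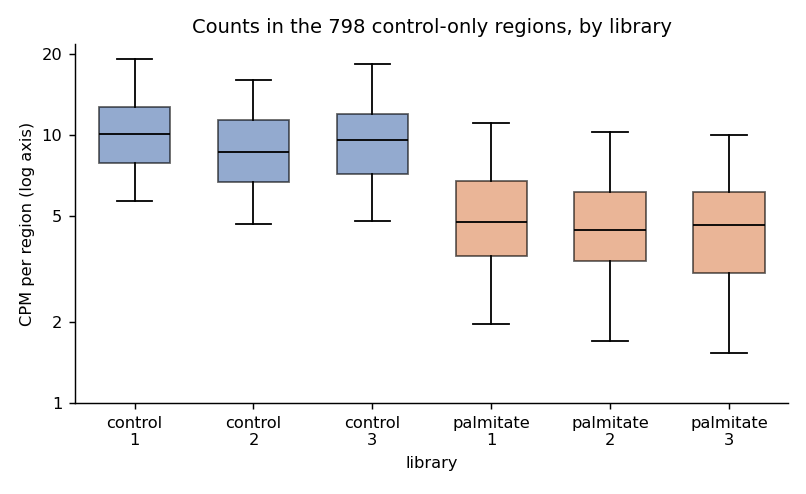
Counts in the 798 control-only regions in each of the 6 libraries, as CPM on a log axis; boxes span the quartiles, the line is the median and whiskers reach the 5th and 95th percentiles of regions. Control medians lie between 8.65 and 10.0 CPM and palmitate medians between 4.42 and 4.73 CPM, and the distributions overlap.

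The peak calls that chose these regions came from the same libraries as the counts, so the fold changes are a description and no test is given for them. In the edgeR quasi-likelihood fit to the whole matrix, 793 of the 798 passed the filter on low counts and 5 did not. Their median log2 fold change (palmitate over control) was -0.98, with quartiles of -1.34 and -0.67 and a range from -2.89 to 0.24, while the median over all 24316 regions tested was -0.05. The fold change was negative in 789 and positive in 4, against 13201 and 11115 of all regions tested. It was -1 or below in 390, a size reached by 5.98% of all tested regions. At a false discovery rate of 0.05, 498 of the 793 were among the lower calls, which made up 12.7% of all tested regions in edgeR. The DESeq2 Wald test had 277 among its lower calls, which made up 5.08% of tested regions. None was among the higher calls of edgeR, DESeq2 or limma-voom, which in edgeR made up 11.9% of tested regions, and none was higher at an unadjusted edgeR p under 0.05.

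In 670 of the 798 every control library lay above every palmitate library in CPM, against 21.2% of all regions, and in 0 did every palmitate library lie above every control (17.7% of all regions). In the other 128 the groups overlapped. Control 2 was the lowest control in 53.1% of the regions and control 1 in 17.5%, against 37.1% and 33.2% over the whole matrix. A curve of counts against region strength was also removed from every library (trended offsets). The median log2 fold change was then -0.52, against 0.02 over all regions tested, and 73 of the 793 values were above 0. Of the 793, 122 were among the lower calls, which then made up 3.9% of tested regions, and 0 among the higher calls (2.11%).

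The size of the fold change followed the number of lists with a peak. Lists and counts came from the same libraries, so this order was built in and is a description. Regions in all 3 control lists had medians of -0.98, -0.62, -0.40 and 0.07 with a peak in 0, 1, 2 and 3 palmitate lists. Regions in 2 control lists and no palmitate list, 2097 in number, had a median of -0.74. The opposite pattern, a peak in all 3 palmitate lists and in no control list, was found at 59 regions, with a median of 0.54. Which of the 2 patterns had the larger median depended on the scaling. With trended offsets the median was -0.52 for the control-only regions and 0.92 for the 59 palmitate-only regions. It was -0.19 for the 2097 regions in 2 control lists.

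**Figure D2:**
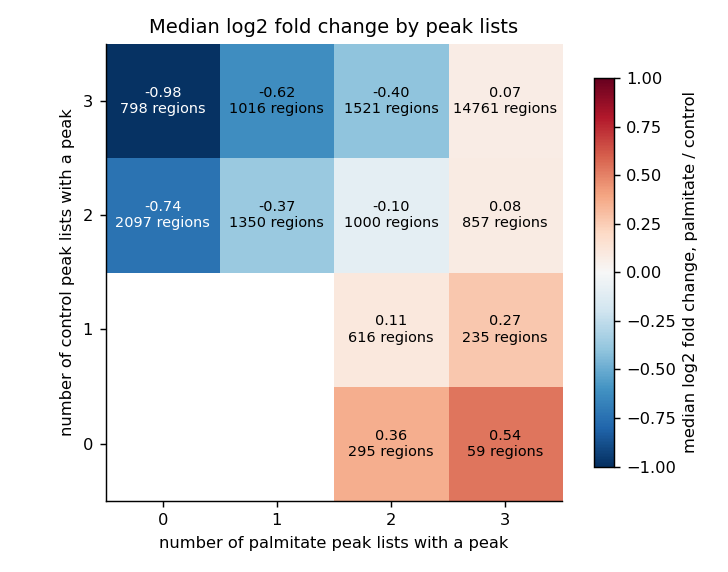
Median log2 fold change (colour and upper number) and number of regions in each combination of control and palmitate peak lists. The 798 control-only regions at the upper left have the lowest median (-0.98) and the 59 palmitate-only regions at the lower right the highest (0.54). These medians are with TMM factors, and with trended offsets they were -0.52 and 0.92. Lists and counts come from the same libraries, so the order of the medians is built in. Empty squares hold no region, since every region of the matrix lies in at least 2 lists of one group.

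Just inside the rule were regions whose weakest control peak had a score of 20, the lowest listed. At the region inside Trerf1, a transcriptional regulator (chromosome 17, 47189628 to 47190071), the control scores were 153, 20 and 116 and the raw counts 46, 16 and 47 against 18, 13 and 21. Control 2 lay among the palmitate libraries there. At the region inside BC004004 the counts were 14, 15 and 18 against 12, 7 and 7, and at an intergenic region 12.6 kb from Gcm1, a placental transcription factor, 12, 31 and 27 against 11, 12 and 18. Just outside were regions with a single palmitate peak of score 20, inside Arsg, a lysosomal sulfatase (19, 26 and 34 against 11, 16 and 22), inside Galntl6 (14, 23 and 17 against 13, 15 and 14) and 0.176 kb from the start of Klf8, a Krüppel-like factor (17, 25 and 19 against 11, 16 and 13). Also outside, for lack of a peak in control 1, were the 3 strongest regions of 2 control lists and no palmitate list, at Ypel5 (57, 94 and 78 against 105, 107 and 94), Dbp (64, 91 and 105 against 82, 98 and 93) and Rnf167 (62, 106 and 106 against 82, 89 and 82).

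The control-only regions were weak. Their median over all libraries was 7.12 CPM, against 18.9 CPM for the matrix and 37.5 CPM for the 14761 regions in all 6 lists, and their median lowest control score was 55, against 250 for the latter. Of the 798, 706 (88.5%) lay in the 3 weakest deciles of the matrix and 9 in the 5 strongest. They made up 9.87%, 12.6% and 6.18% of the first 3 deciles and 0% of the last 2. Fold changes were lower in weak regions throughout the matrix, the median of all regions being -0.61 in the weakest decile and 0.27 in the strongest. Within the first 5 deciles the control-only medians were -1.06, -1.03, -0.90, -0.85 and -0.62, against -0.61, -0.44, -0.33, -0.25 and -0.16 for all regions. The part of peak calling at low counts in these values was not tested.

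**Figure D3:**
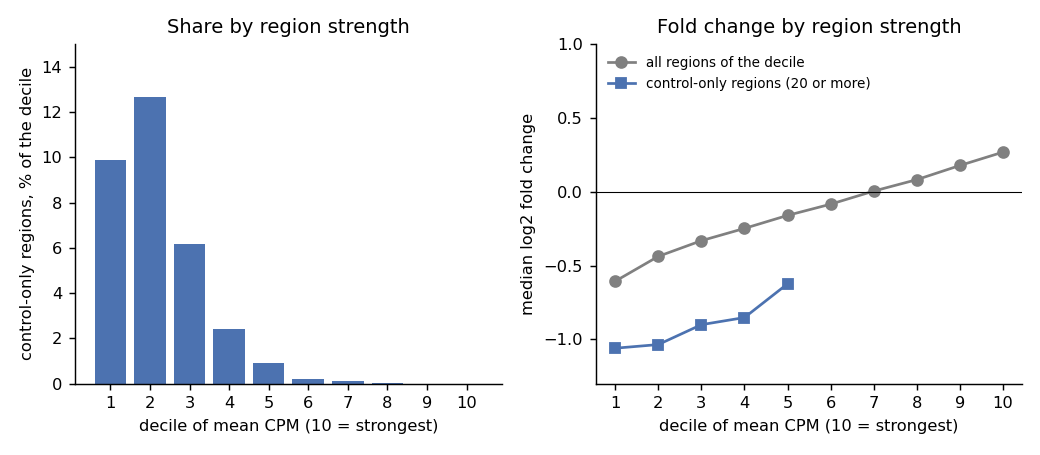
Left, control-only regions as a share of each decile of region strength (mean CPM over 6 libraries); right, median log2 fold change of all regions and of control-only regions in the deciles that hold 20 or more of them. The share peaks at 12.6% in the second decile, and the control-only medians lie below those of all regions in each of the 5 deciles shown.

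The location of the regions was not used by the rule. Only 54 (6.77%) were gene-end regions, lying within 1 kb of the start of a protein-coding gene or, where the start was not in the promoter table, of either end of the gene, against 40.6% of all regions. Inside protein-coding genes lay 451 (56.5%; 32.7% of all regions) and between genes 293 (36.7%; 26.7%). Put per location, 0.54% of gene-end regions, 5.61% of regions inside genes and 4.46% of intergenic regions were control-only. Of the regions just outside the rule, 12.6% of those with 1 palmitate peak and 10.0% of those in 2 control lists were at gene ends. Of the 59 palmitate-only regions 16.9% were at gene ends. Gene-end regions are also the stronger ones, at a control median of 45.7 CPM against 13.1 inside genes and 13.2 between them, so location and strength moved together.

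**Figure D4:**
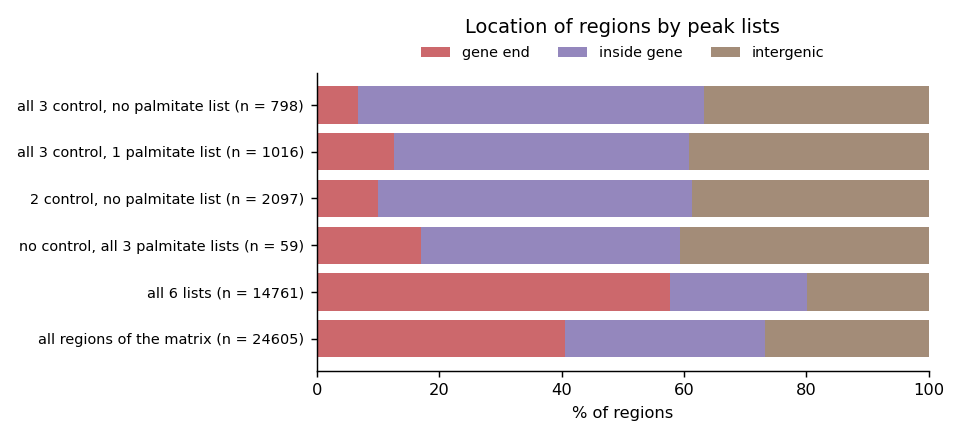
Share of regions at gene ends, inside protein-coding genes and between genes, for sets of regions defined by the peak lists. Gene ends make up 6.77% of the control-only regions, 57.6% of regions in all 6 lists and 40.6% of the matrix.

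The regions lay far from gene starts or, for genes whose start was not in the promoter table, from either gene end. The median distance was 25.5 kb (upper quartile 63.3 kb, the longest 1056 kb), against 6.21 kb over the matrix. Leaving out gene ends it was 28.6 kb against 23.4 kb, and 30.6% of all control-only regions lay over 50 kb away against 16.1% of the matrix. Those inside genes lay in genes of a median length of 101 kb against 92.1 kb for all regions inside genes. Fold changes were less negative at gene ends (median -0.61) than inside genes (-1.04) or between them (-0.99), an order that all regions of the matrix also had (0.15, -0.28 and -0.24). Every control lay above every palmitate library in 37 of 54, 385 of 451 and 248 of 293, against 6.06%, 33.6% and 28.9% of all regions in these locations. By chromosome, control-only regions made up from 1.79% (X) to 5.64% (18) of the regions.

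Among the strongest members were some whose counts did not differ between groups in the way their peak calls did. The highest mean count was at a region inside Hnrnpl, an RNA-binding splicing regulator (chromosome 7, 28808991 to 28809218, 1.67 kb from its start), with 106, 116 and 121 reads in controls and 109, 128 and 109 with palmitate. The means were 42.0 ± 3.86 and 42.8 ± 0.867 CPM (n = 3), with overlapping groups, although all 3 control lists and no palmitate list held a peak there. The nearest palmitate peak lay 1.10 kb away. A region inside Trim8, a ubiquitin ligase, was alike in this (67, 90 and 74 against 79, 68 and 65). So was a region 0.754 kb from the start of Trim28, a corepressor that silences transposons (50, 56 and 71 against 50, 46 and 49).

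Other strong members were lower with palmitate in every library. An intergenic region 11.2 kb from the start of Cish, a cytokine-induced inhibitor of T cell signalling (chromosome 9, 107307820 to 107308295), had 113, 89 and 142 reads in controls and 57, 65 and 58 with palmitate, or 42.4 ± 11.1 and 22.3 ± 0.192 CPM. Its log2 fold change was -0.92 ± 0.17 (SE), and control 2 was the lowest control. Inside Tmem209, a nuclear membrane protein gene, 91, 68 and 110 reads stood against 41, 30 and 34. Inside Tfeb, the transcription factor of lysosome genes (chromosome 17, 47739340 to 47739722), 58, 92 and 97 reads stood against 40, 54 and 47. The groups were also apart, by less, inside Dnajb5, a heat shock cochaperone (30.5 ± 2.61 and 22.2 ± 1.46 CPM), 0.447 kb from the start of Atp11b, a phospholipid flippase (23.1 ± 1.76 and 17.2 ± 1.98 CPM), and 3.67 kb from Ptgds, a prostaglandin synthase (20.6 ± 0.508 and 17.0 ± 0.680 CPM). A palmitate peak lay 0.034 kb from the Atp11b region.

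Among gene-end members, 27 of 54 covered the start or end itself, and the strongest after Atp11b, Trim28 and Lck were at Maml2, a Notch coactivator, and Aldh18a1, an enzyme of proline synthesis. At Maml2 (chromosome 9, 13297971 to 13298293) the counts were 51, 54 and 72 against 39, 31 and 43, with every control above every palmitate library in CPM. At Aldh18a1 they were 45, 53 and 56 against 42, 41 and 36, a difference of the same direction and smaller size (log2 fold change -0.34 ± 0.20 SE, against -0.62 ± 0.21 SE at Maml2).

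The lowest fold changes, among members with a mean of 20 or more reads per control library, lay away from gene ends. So did most members, since only 6.77% of all control-only regions lay at gene ends. A region inside Eif3h, a subunit of a translation initiation factor (chromosome 15, 51804744 to 51805140, 18.2 kb from the nearer gene end), had 20, 29 and 37 reads in controls and 6, 3 and 2 with palmitate. Its log2 fold change, -2.89 ± 0.41 (SE), was the lowest of all 793. It was followed by an intergenic region 86.1 kb from Wasf1, an actin regulator (25, 19 and 26 against 5, 3 and 6; -2.27 ± 0.40 SE), and by one 49.6 kb from Vmn1r223, a vomeronasal receptor gene (27, 32 and 44 against 8, 4 and 9; -2.24 ± 0.34 SE). A region inside Vcl, which encodes the adhesion protein vinculin, had 28, 27 and 36 reads against 5, 9 and 5. One inside Rad51b, a DNA repair gene, had 14, 28 and 29 against 5, 6 and 4. In all of these the groups were far apart for their size, but under 10 palmitate reads per library leave the fold imprecise.

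The deepest of them was a stretch 8.76 kb from U2af1, which encodes a subunit that recognises splice sites, with 53, 52 and 63 reads against 15, 12 and 10. The remaining members of this group of 10 lay 21.6 kb from Odf1, a sperm tail gene (log2 fold change -2.16), and inside Zmat5 (-2.14), Prune2 (-2.13) and Pnpla7, a lysophospholipase (-2.07). Naming by the nearest gene does not make that gene the target. The nearest listed palmitate peak lay 8.45 to 85.9 kb from these 10, and over all 798 the median distance to it was 13.3 kb. For 47 members it was at most 1 kb, and their median log2 fold change was -0.74 against -1.02 for the other 751.

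Most members had no other member within 50 kb, but whether they lay closer together or further apart than an even spread was not tested. The 798 were assigned to 743 genes, by the gene they lay in or the nearest start (or end, where the start was not in the promoter table). Of these, 50 genes had 2 or more. Another member lay within 50 kb of 67 (8.40%), and the median distance to the next member was 564 kb. The 5 genes with 3 members each were Snd1, a transcriptional coactivator and nuclease, Tspan5, a tetraspanin, Zswim6, Adgrl2, an adhesion receptor, and Klf14, a Krüppel-like factor. All 3 members of Snd1 lay inside the gene on chromosome 6 (starts 28486920, 28553052 and 28583369), with log2 fold changes of -0.71, -1.996 and -1.31. All 3 of Tspan5 lay inside it on chromosome 3 (138757244, 138841285 and 138864014; -0.94, -1.77 and -1.46). Those of Klf14 lay 113 to 192 kb from it, from 31072206 to 31150726 on chromosome 6 (-1.22, -2.0002 and -0.99). Those of Zswim6 had -1.29, -1.05 and -1.27, and those of Adgrl2 -0.77, -0.32 and -1.64, up to 463 kb from the start. At 2 of these 15 members, 1 each of Klf14 and Adgrl2, the groups overlapped, as they did at 128 of all 798.

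T cell and metabolic genes were looked up in 13 lists with 293 genes. Of the 1913 regions inside or within 50 kb of them, 46 (2.40%) were control-only, against 3.24% of the matrix, and no list had more than 4.48%. These 46 lay at 44 genes, 15.1% of the listed genes with any region, against 9.17% of all protein-coding genes with one. All 46 had a log2 fold change below 0 with TMM factors (median -0.91), as had 789 of the 793 control-only regions tested. Of all 24316 regions tested, 13201 did. With trended offsets 40 of the 46 did, while 73 of the 793 control-only values were above 0. Of the 46, the value was above 0 for the regions at Rasgrp1, Foxo1, Jak2, Srgn, Slamf7 and Runx1. Some others came near 0, such as Aldoa (-0.06), Casp8 (-0.12), S1pr4 (-0.15) and Cd6 (-0.15). Values further from 0 included Cblb (-1.34) and the Nfkb1 region at 135579327 (-1.19). Unless stated, the fold changes given by gene below are with TMM factors. In 39 every control lay above every palmitate library, against 84.0% of all control-only regions and 21.2% of the matrix. By location 28 lay inside genes, 12 between genes and 6 at gene ends.

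**Figure D5:**
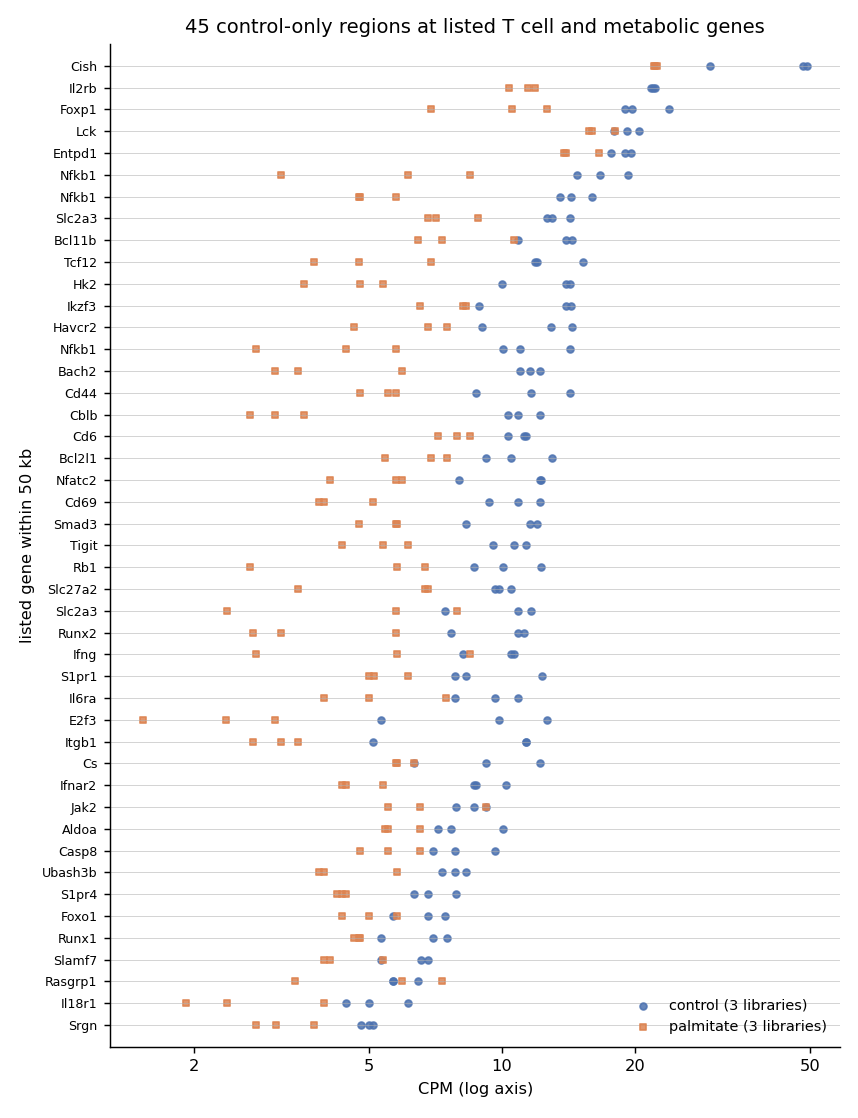
CPM in each of the 6 libraries (circles, control; squares, palmitate; log axis) at 45 control-only regions inside or within 50 kb of a listed gene, ordered by control mean. In 38 of the 45 every control lies above every palmitate library (84.0% of all control-only regions, 21.2% of the matrix); the Cish region at the top has the highest counts.

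Of T cell transcription factors, 8 of 331 regions were control-only. They lay inside Foxp1 (55, 57 and 58 reads against 32, 31 and 18; chromosome 6, 99031326 to 99031676), a forkhead factor of T cell quiescence, and Bcl11b (33, 42 and 32 against 27, 19 and 19), a factor of T lineage commitment. Inside Bach2, a repressor that restrains effector differentiation, 28, 33 and 34 reads stood against 15, 9 and 9. Inside Tcf12, an E protein, 35, 36 and 35 stood against 12, 11 and 18. The log2 fold changes were -1.05 ± 0.23, -0.69 ± 0.27, -1.49 ± 0.31 and -1.34 ± 0.29 (SE). The others lay inside Runx2 (-1.35), Ikzf3 (-0.68) and Runx1 (-0.48), and 19.1 kb from Foxo1 (-0.37), where the groups overlapped. At 7 of the 8 genes the groups were apart, beside 84.0% of all control-only regions, and the Runx1 value was 0.04 with trended offsets.

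Of activation-induced factors, 4 of 178 regions were control-only, and 3 of them lay around Nfkb1, the gene of the NF-kB subunit p50. The gene's start was not in the promoter table, so distances are to its nearer end. One region lay 4.83 kb from it (chromosome 3, 135579327 to 135579823), with 34, 58 and 49 reads against 8, 18 and 22. Another lay 29.0 kb beyond the opposite end (135720995 to 135721349), with 31, 43 and 47 against 12, 14 and 15 and a palmitate peak 0.811 kb away. The last lay 28.2 kb from the gene inside the neighbouring gene Manba, a lysosomal mannosidase (23, 33 and 42 against 7, 13 and 15). Their log2 fold changes were alike, at -1.52 ± 0.28, -1.52 ± 0.27 and -1.44 ± 0.31 (SE). The remaining one lay inside Nfatc2, a factor activated by calcium signals (28, 24 and 36 against 15, 12 and 15; -1.04 ± 0.30 SE).

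Of cytokine receptor and JAK-STAT genes, 7 of 225 regions were control-only. Besides the Cish region, the strongest lay 0.568 kb from an end of Il2rb, the receptor chain shared by interleukin 2 and interleukin 15 (chromosome 15, 78510242 to 78511053). There 51, 66 and 64 reads in controls stood against 29, 35 and 27 with palmitate (21.98 ± 0.232 and 11.2 ± 0.790 CPM), and the replicates of each group lay close together. The others lay inside Il18rap (log2 fold change -0.90), Il6ra (-0.76) and Smad3 (-0.98), 27.9 kb from Ifnar2 (-0.96) and 42.4 kb from Jak2 (-0.27, with overlap). With trended offsets the Il18rap value was -0.12.

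Of T cell receptor signalling genes, 5 of 260 regions were control-only, the strongest being the Lck promoter described above. Inside Cblb, a ubiquitin ligase that restrains T cell receptor signalling (chromosome 16, 52055190 to 52055488), 28, 31 and 32 reads stood against 9, 9 and 7 (log2 fold change -1.83 ± 0.32 SE). The region inside Cd6, a coreceptor (26, 31 and 33 against 20, 21 and 22), and that inside Ubash3b, a phosphatase of the same pathway (19, 22 and 23 against 10, 17 and 10), were lower by less. The region 32.5 kb from Rasgrp1, a Ras activator, overlapped between groups (13, 17 and 19 against 15, 10 and 19).

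Of inhibitory receptor genes, 3 of 67 regions were control-only, at Tigit, Havcr2 and, 22.7 kb from Entpd1, the Aldh18a1 end given above. Inside Tigit, 26, 32 and 28 reads stood against 11, 18 and 14 (log2 fold change -0.97 ± 0.29 SE). Inside Havcr2, 33, 27 and 38 stood against 19, 20 and 12, and a palmitate peak lay 0.3 kb away. Of costimulatory genes, 1 of 88 regions was control-only, 8.50 kb from Slamf7, with overlapping groups (15, 16 and 20 against 10, 12 and 14).

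Of effector molecule genes, 2 of 92 regions were control-only. One lay 24.7 kb from Ifng, the gene of interferon gamma (chromosome 10, 118470593 to 118470942), with 24, 32 and 24 reads against 7, 17 and 22. Palmitate 3 lay above control 3 in CPM there, so the groups overlapped. The other, inside Vps26a and 16.3 kb from Srgn, the proteoglycan of cytotoxic granules, had 11, 15 and 15 against 7, 11 and 8.

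Of homing and adhesion genes, 5 of 147 regions were control-only. At Cd69, an early activation marker that retains T cells in tissue, a region 0.736 kb from the gene (chromosome 6, 129266054 to 129266588) had 28, 28 and 32 reads against 10, 15 and 10 (log2 fold change -1.303 ± 0.30 SE). A palmitate peak lay only 0.097 kb from this region. The same locus held the strongest palmitate-only region, 29.0 kb from the gene (129237951 to 129238311), with 59, 82 and 64 reads in controls and 91, 108 and 88 with palmitate (0.51 ± 0.15 SE). The 2 regions of Cd69 thus pointed in opposite directions, a contrast that the peak lists had fixed. Inside Cd44, an adhesion receptor of activated T cells, 20, 35 and 42 reads stood against 14, 14 and 15. The others lay 40.9 kb from S1pr1 (-0.81), 38.5 kb from S1pr4 (-0.68) and 30.4 kb from Itgb1 (-1.55).

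Of glucose and mitochondrial genes, 5 of 125 regions were control-only. At Slc2a3, the high-affinity glucose transporter GLUT3, 2.18 kb from the gene (chromosome 6, 122804540 to 122804814), 29, 39 and 42 reads stood against 18, 20 and 23, and a second region inside the gene overlapped between groups (17, 35 and 32 against 20, 7 and 15). Inside Hk2, a hexokinase, 32, 30 and 42 reads stood against 9, 14 and 14. The other 2 lay 30.9 kb from Aldoa (-0.49) and 39.4 kb from Cs, at an end of Il23a, a cytokine subunit gene (-0.61).

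Of the cell cycle list, 2 of 111 regions were control-only, 2.99 kb from E2f3, a factor of S phase entry (29, 16 and 29 against 6, 9 and 4), and 22.6 kb from Rb1, the retinoblastoma gene (23, 26 and 36 against 17, 17 and 7). Of the apoptosis list, 3 of 120 were, among them 1 inside Bcl2l1, the gene of the survival protein Bcl-xL (24, 39 and 27 against 19, 16 and 18), and 1 lying 9.35 kb from Casp8 (-0.56). Of fatty acid genes, 1 of 102 was, 5.69 kb from Slc27a2, a fatty acid transporter, and inside Hdc (24, 29 and 29 against 17, 20 and 9). Of the integrated stress and unfolded protein list 0 of 98 were. These counts are small, and their shares, 0% to 4.48% with a median of 2.25% over the 13 lists, were below that of the matrix in 10 lists and above it in 3.

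The members with the highest fold changes were not lower with palmitate. They were a region inside Cacna1f, a calcium channel gene, 23.0 kb from Foxp3 (11, 18 and 9 reads against 16, 15 and 13; log2 fold change 0.24 ± 0.35 SE), one 0.633 kb from Sap30, a histone deacetylase subunit (35, 45 and 35 against 40, 47 and 39; 0.15 ± 0.22 SE), and the Hnrnpl region (0.04 ± 0.13 SE). In all, 23 members had a log2 fold change above -0.25, and 4 of these had a palmitate peak within 1 kb.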

How the data were processed

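ATAC-seq counts in 24605 regions and a peak list per library were used for 3 control and 3 palmitate libraries (mm10). Per the submitters' processing notes, MACS2 2.2.8, Bowtie2 2.5.1, edgeR 3.40.2, Trim Galore 0.6.10 and Picard 2.23.8 were used. The sources used here do not give the way regions were merged or any Tn5 shift. The deposited counts are whole reads per region, not normalized, and the deposited peak score is the authors' own value per peak, none below 20. Counts (2219136 to 3089230 per library) were fitted over the whole matrix with edgeR 4.0.16 in R 4.3.3 (TMM factors, filterByExpr, quasi-likelihood test, Benjamini-Hochberg adjustment at 0.05), after a check on simulated data. Because the labels do not tie replicates to separate animals or cultures, the spread between them may be technical.

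Gene positions came from RefSeq (GRCm38.p6). A start site was in the promoter table for 17273 of 21627 protein-coding genes (79.9%); for the others either end was used. Named regions were the 10 with the highest mean CPM, the 10 with the lowest fold change at a mean of 20 or more control reads, the 2 strongest per gene list, the 5 strongest at gene ends, the 5 genes with most members, the 3 highest fold changes, and 3 at each edge of the rule and of the opposite pattern; other regions at listed genes, and the promoters printed, were chosen after their values were seen. The members and lists were chosen with earlier results of these data known. Alternatives were other scalings, count filters, DESeq2 1.42.0, limma 3.58.1 (voom), a replicate block, each library left out, and other overlap, score and distance rules. Sequence around region centres was not analysed here. The results of 2 regions that the naming rule or the lists include are not reported here.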

Additional observations from a re-analysis of the deposited data

How the results depend on the processing

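The number of control-only regions was 898 when a peak had to cover 50% of the region (592 shared with the 798). It was 179 with peaks above the median score of 172 (4 shared), a rule that also dropped weaker palmitate peaks. With 1 list left out, which cannot lower the number, it was 1100 to 1826. The median log2 fold change of -0.98 was -1.10 with total counts, -0.52 with trended offsets, -1.09 with at least 20 reads in 3 libraries, and -1.06 to -0.94 with 1 library left out. Lower calls were 498 of 793 members tested, beside 3078 of all 24316 regions tested. They were 122 with trended offsets (948 of all regions), 277 with DESeq2 (1236) and 571 with total counts (4331). With at least 20 reads in 3 libraries they were 348 of only 480 members tested (2623 of 21211 regions). The remaining settings gave 465 to 522 (2821 to 3601 of all regions). With 1 library left out they were 358 to 492 (1871 to 3391). Higher calls among members were 0 under each of these settings, beside 514 to 3310 of all regions. The share at gene ends was 10.8% within 2.5 kb (44.1% of all regions) and 10.6% with the 50% overlap.

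Same-numbered libraries did not deviate together (correlations 0.000449, -0.104 and -0.0270). A replicate block gave 469 lower calls and a median of -0.99. Of 1050 values of 71 named regions, 59 moved by more than the spread between replicates. Many of these moves came with trended offsets, which for example took Cd44 from -1.13 to -0.74 and Hk2 from -1.46 to -1.07. Among the 1050, 11 values, at 8 regions, had the opposite sign, including the Hnrnpl region, at -0.08 with total counts. Median counts of 12 to 13 reads per palmitate library limit the precision of single regions.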
